A study of Homo sapiens with 18 samples.

Results

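Genes were sorted by whether the fusion protein AML1-ETO was called near them by both of the antibodies used against it, in control cells, after knockdown of the microRNA miR-130a, or in both conditions. A gene was counted as occupied in a condition if a peak of that condition's dual-antibody list, meaning a site called by anti-ETO and by anti-Flag, touched the gene or lay within 10 kb of either end. Of 19974 protein-coding genes (RefSeq, GRCh38) on chromosomes 1 to 22 and X, 2182 were occupied in 1 condition and not in the other. Of these, 1530 were occupied in control only and 652 in knockdown only.

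AML1-ETO arises from the t(8;21) translocation of acute myeloid leukaemia, which joins the DNA-binding runt domain of RUNX1 (AML1) to nearly all of RUNX1T1 (ETO). RUNX1 activates myeloid and lymphoid genes, and the ETO part brings corepressors and histone deacetylases to the same RUNX sites. At its sites the fusion sits with other blood factors, including E proteins, LYL1, LMO2, LDB1 and the ETS factors ERG and FLI1. In CUT&RUN, an antibody tethers a nuclease at the protein of interest, and the DNA cut free there is sequenced.

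The cells were Kasumi-1, a human t(8;21) acute myeloid leukaemia line, carrying AML1-ETO with a Flag tag in control and knockdown alike. They were transduced as control or for miR-130a knockdown, and live GFP+ cells were sorted 3 days later. Each condition had 3 libraries with anti-ETO, 3 with anti-Flag and 3 with mouse IgG, 18 in all. The labels do not say whether the Flag-tagged line is a single clone, nor whether the 3 libraries of a group came from separate cultures. They also do not say whether untagged AML1-ETO is present, which anti-ETO would bind and anti-Flag would not.

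The values are peak positions, with 1 list per antibody and condition and 1 dual-antibody list per condition. The lists carry neither peak heights nor values of single libraries, so the spread between libraries is unknown, the depth behind a call is unknown and no test between conditions was possible. All 95% intervals are Wilson intervals that cover counting only, and genes that share a peak are not independent. A call also cannot tell fewer cells with the protein bound from less protein bound in each cell. No RNA was measured, so the cell type was not checked against expressed markers and occupancy says nothing here about expression.

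The knockdown list was the longer of the pair and yet reached fewer genes. The 12247 control dual-antibody peaks reached 8756 genes (43.8%), and the 13712 knockdown peaks reached 7878 genes (39.4%). Both lists reached 7226 genes, 36.2% of all genes (35.5 to 36.8), which is 82.5% of the control genes and 91.7% of the knockdown genes. The 1530 control-only genes made up 7.66% of all genes (7.3 to 8.04) and the 652 knockdown-only genes 3.26% (3.03 to 3.52), so 70.1% of the genes with 1-sided occupancy were control only. The remaining 10566 genes, 52.9%, had no dual-antibody peak in either condition. Peaks away from any protein-coding gene made up 10.5% of both lists.

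The excess of control-only genes held for every window tried, from the gene body alone (1303 control only, 765 knockdown only) to 50 kb (1595 and 430). It was small among the wider 50% of each list, at 824 and 756. Where a gene had to have at least 2 peaks to count, the classes were equal within counting error. They held 907 control-only and 940 knockdown-only genes, or 49.1% control only (46.8 to 51.4). The order turned when genes were counted by the authors' deposited lists of condition-unique peaks, which include unique peaks at genes occupied in both conditions: 2493 genes then had a control-unique peak without a knockdown-unique one, and 2793 the reverse.

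**Figure D1:**
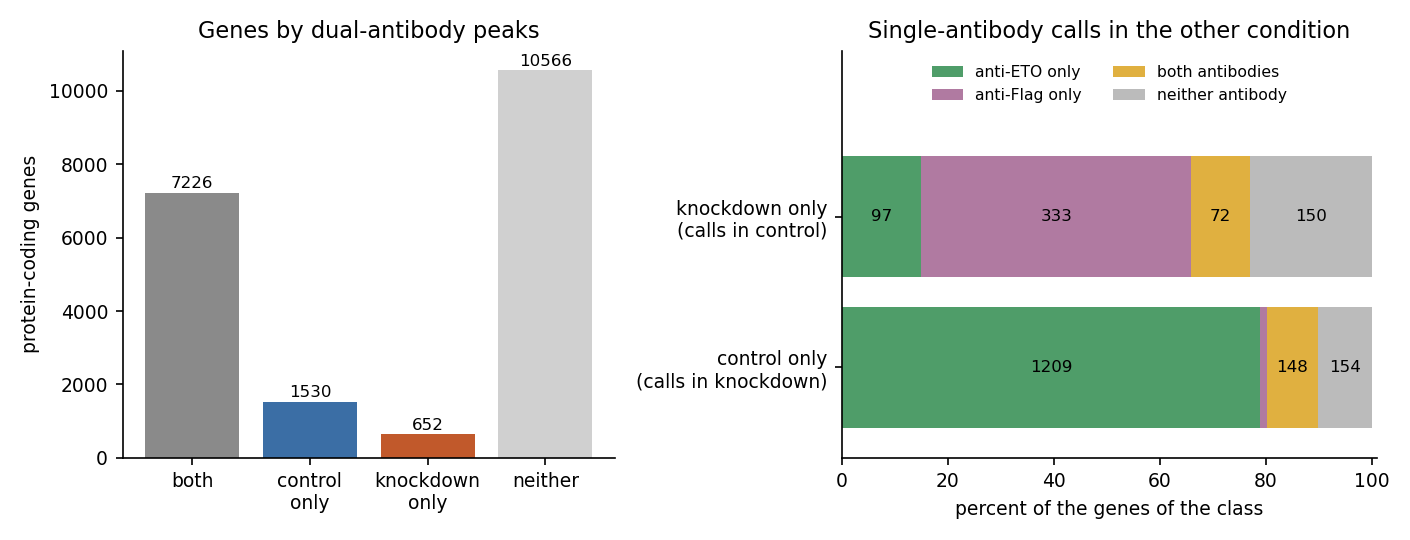
The left panel counts protein-coding genes by whether they had a dual-antibody peak in both conditions, control only, knockdown only or neither. The right panel splits the 1-sided genes by the single-antibody calls in the condition that lacked the dual-antibody peak, as a percentage of the class with gene numbers written in the bars: anti-ETO alone takes 1209 of the 1530 control-only genes, and anti-Flag alone takes 333 of the 652 knockdown-only genes.

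The additional knockdown peaks lay mostly near genes that were occupied in both conditions. Of the 4597 knockdown dual-antibody peaks that overlapped no control one, 78.7% were near a gene occupied in both conditions and 8.74% were near 1-sided genes alone. Of the 3048 control peaks that overlapped no knockdown one, these shares were 48.2% and 37.8%. An occupied gene had on average 2.05 peaks in control and 2.58 in knockdown. The number of genes with at least 2 peaks was nearly equal, 4497 in control and 4530 in knockdown. At least 5 peaks were found at 602 genes in control and 1154 in knockdown, a ratio of 1.92, and at least 10 peaks at 28 and 125 genes, a ratio of 4.46. The 100 genes with the most peaks held 5.06% of all gene-peak pairs in control and 6.66% in knockdown.

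**Figure D2:**
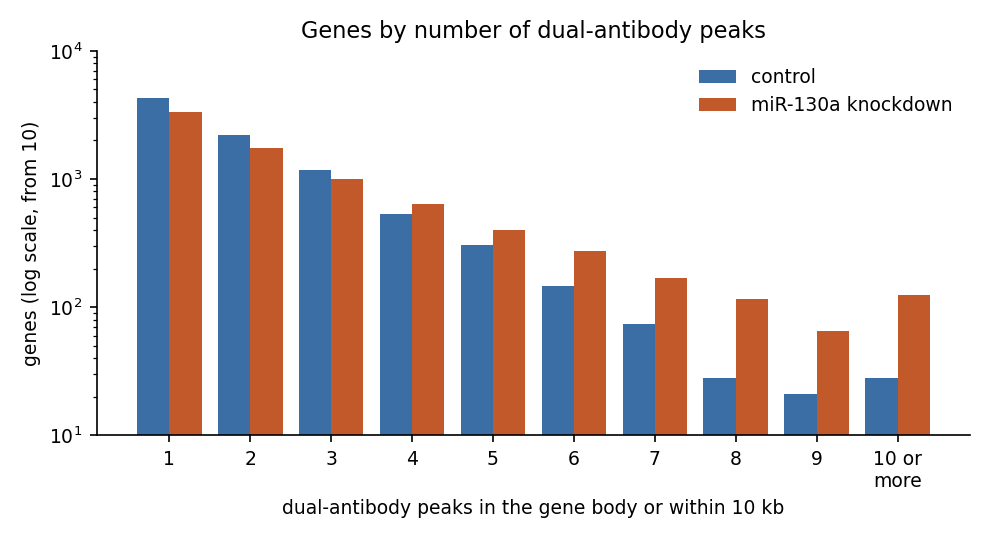
Number of genes (log axis starting at 10) with each number of dual-antibody peaks within 10 kb, in control and in miR-130a knockdown. Control has more genes with 1, 2 or 3 peaks and knockdown more genes in every group from 4 peaks up, with 28 against 125 genes at 10 or more.

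Over all genes, 3179 (15.9%) had more peaks in knockdown and 2807 (14.1%) had fewer, and the difference followed the starting number. Of the 4259 genes with 1 control peak, 31.5% had none in knockdown and 19.3% had more. Of the 2201 genes with 2 control peaks, 7.77% had none, and of the 1164 with 3 control peaks, 1.29% had none. Among the 296 genes with 6 or more control peaks, 60.8% had more in knockdown and 22.6% had fewer. Seen from the other side, 15.9% of the 3348 genes with 1 knockdown peak had none in control.

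Among the 7226 genes occupied in both conditions, 2527 (35%) had more peaks in knockdown, 1277 (17.7%) had fewer and 3422 (47.4%) had equal numbers. More peaks in knockdown were thus found at 66.4% of the genes whose numbers differed. This majority did not hold in the rebuilt settings with shorter single-antibody lists: with both knockdown lists shortened by peak width to the control lengths and the dual lists rebuilt, it became 41.4%, and with all 4 lists at the length of the shortest it became 45.9%. At 3235 genes (44.8%) every peak of each list overlapped a peak of the other. A further 2142 genes (29.6%) had the control peaks plus new ones, 965 (13.4%) lacked some control peaks without new ones, and 884 (12.2%) had both. Counted apart, 238 genes (3.29%) had no control peak that overlapped a knockdown peak. The AP-1 subunit gene FOSB was among these, with 2 peaks in each condition at different places. The bases covered by peaks at a gene had medians of 1560 bp (control) and 1802 bp (knockdown).

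The genes with the largest differences in favour of knockdown were SEPTIN9, a cytoskeletal GTPase gene (chromosome 17, 77281499 to 77500596), with 15 control and 33 knockdown peaks, and BAHCC1, a chromatin reader gene (chromosome 17, 81395457 to 81466331), with 19 and 35. IQANK1 had 1 control peak and 15 knockdown peaks. GSE1, whose protein associates with histone deacetylases, had 19 and 31. Next came CCDC57 with 5 and 16, ZC3H3 with 10 and 20, and KRTAP5-6, a keratin-associated protein gene of under 1 kb whose count comes from its surroundings, with 2 and 12. The list was completed by ZNF707 (1 and 10), MFSD11 (4 and 13), the endocytosis gene EHD1 (5 and 14), the telomere helicase gene RTEL1 (5 and 14) and the atypical protein kinase C gene PRKCZ (8 and 17). Together these 12 genes had 94 control peaks, of which 90 overlapped a knockdown peak, and 230 knockdown peaks. All 12 had more anti-ETO and more anti-Flag peaks in knockdown. This is not separate support, because the genes were picked by dual-antibody peaks and each needs a call of both antibodies. At SEPTIN9 the anti-ETO list held 17 control and 34 knockdown peaks, and the anti-Flag list held 36 and 65.

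**Figure D3:**
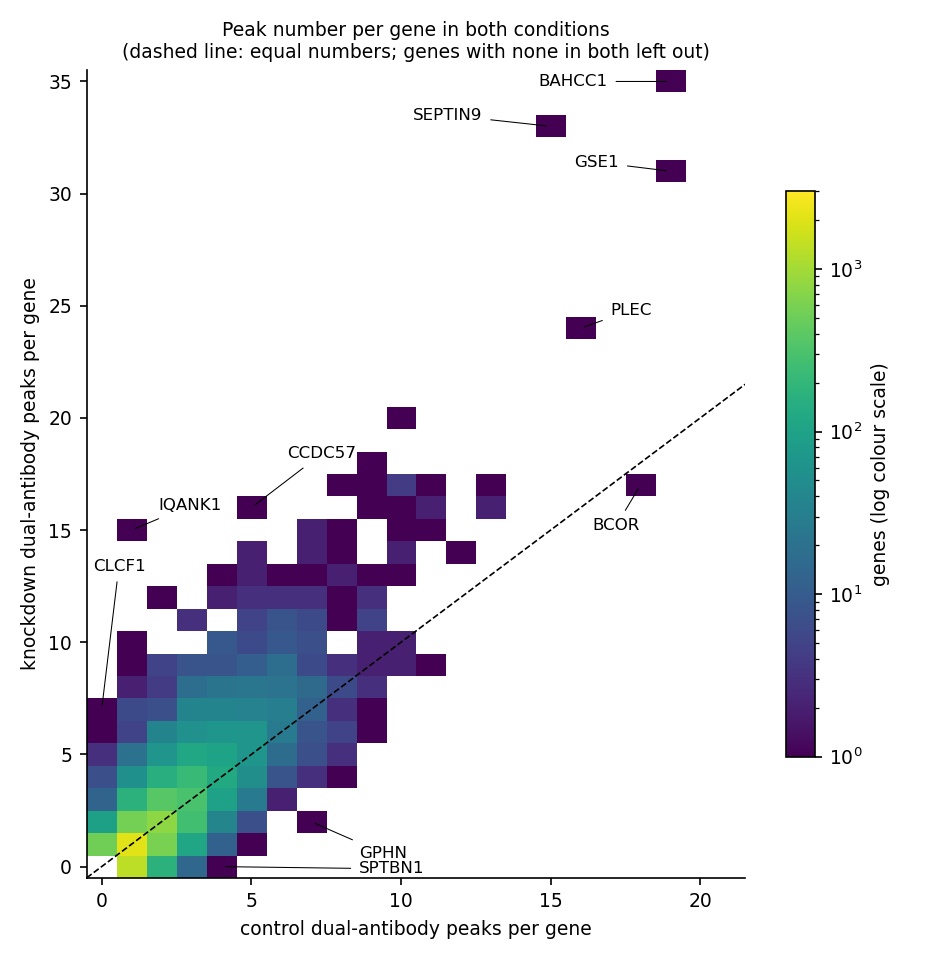
Each cell of the grid counts genes (log colour scale) by their number of dual-antibody peaks in control (horizontal) and in knockdown (vertical); the dashed line marks equal numbers, and genes with none in both are left out. The genes with the highest numbers lie above the line, such as BAHCC1 at 19 and 35, whereas BCOR lies just under it at 18 and 17 and GPHN at 7 and 2.

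Differences in favour of control were smaller. GPHN, which encodes the scaffold protein gephyrin, had 7 control and 2 knockdown peaks over 1227 kb of gene. The alanyl-tRNA synthetase gene AARS1 had 5 and 1, and TNRC18 had 8 and 4. The other 9 genes named by the rule had 4 control peaks and 1 knockdown peak each: BSPRY, CDC14A, DUSP10, FMC1-LUC7L2, the growth factor receptor gene IGF1R, MBP, the cytoskeletal linker gene MSN, OGA and STAP2. The anti-Flag list held fewer peaks in knockdown at all 12 of these genes. The anti-ETO list held fewer peaks in knockdown at 4 of them and more at 5. GPHN had 9 anti-ETO peaks in control and 11 in knockdown, beside 9 and 2 anti-Flag peaks. The direction at CDC14A and STAP2 turned among the wider 50% of the peaks, to 1 more in knockdown, and at STAP2 also with all 4 lists at 1 length.

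Some genes had many peaks in both conditions. BCOR, a component of a Polycomb repressor complex that is often mutated in myeloid leukaemia, had 18 control and 17 knockdown peaks, a difference that turned to 4 more in knockdown among the wider 50% of the peaks. PLEC, a cytolinker gene, had 16 and 24, and CDH23, a cadherin gene, had 13 and 16.

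Control-only genes mostly rested on a single peak: 1343 of 1530 (87.8%) had 1 control peak, 171 had 2 and 16 had 3 or more. SPTBN1, which encodes the membrane skeleton protein beta-spectrin (chromosome 2, 54456327 to 54671446), had 4, the most. Its peaks lay at 54557887 to 54558650, at a start, and inside the gene at 54559535 to 54560063, 54560309 to 54560743 and 54570166 to 54571376. All 4 overlapped an anti-ETO call in knockdown and none overlapped an anti-Flag call there. Genes with 3 control peaks and none in knockdown included OSBPL3, a lipid transfer protein gene, CAPG and TMSB10, which encode actin-binding proteins, and CGAS, which encodes the cytosolic DNA sensor cGAS. SEMA4D, a semaphorin gene, CTC1, of the telomere CST complex, AP1G1, of a clathrin adaptor, and E2F5, a cell cycle transcription factor gene, also had 3, as did PISD, TUBGCP3 and DBNL. Across the 12 genes with the most control peaks there were 37 distinct peaks, of which 33 overlapped an anti-ETO call in knockdown, 0 overlapped an anti-Flag call and 4 overlapped neither.

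Knockdown-only genes rested on a single peak at 532 of 652 (81.6%), on 2 at 95 and on 3 or more at 25. CLCF1, a cytokine gene of the interleukin-6 family (chromosome 11, 67364168 to 67374177), had 7 knockdown peaks and no control peak in its window. Its list of control anti-Flag peaks held 8 and its list of control anti-ETO peaks held 0, against 13 and 8 in knockdown. The outermost of the 7, at 67352873 to 67354658, reaches into the window and overlapped a control dual-antibody peak that does not. GCGR, the glucagon receptor gene (chromosome 17, 81804150 to 81814008), had 6 knockdown peaks, with 10 anti-Flag and 0 anti-ETO peaks in control. AANAT, PAFAH1B3 and MARCHF2 had 5 each, and MYADML2, MISP, EVPL, TJP3, PRR19, CC2D1A and KCNK7 had 4 each. PAFAH1B3 and PRR19 are neighbours and share 3 of these peaks. The 12 genes lie on chromosomes 11, 17 and 19. Of their 53 distinct peaks, 38 overlapped a control anti-Flag call, 1 overlapped a control anti-ETO call and 15 overlapped neither.

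The antibody that was called in the other condition therefore differed between the classes. Of the 1530 control-only genes, 1209 (79%, 76.9 to 81) had an anti-ETO peak and no anti-Flag peak in knockdown. Only 19 (1.24%) had anti-Flag alone, 148 (9.67%) had calls of both antibodies without a dual-antibody peak, and 154 (10.1%) had neither. Of the 652 knockdown-only genes, 333 (51.1%, 47.2 to 54.9) had anti-Flag alone in control, 97 (14.9%) anti-ETO alone, 72 (11%) both and 150 (23%) neither. Genes without a call of either antibody in the other condition were thus 154 control only against 150 knockdown only, where the full classes stood at 1530 and 652. Each antibody's own gene set shows the same contrast. It is not separate support, because the dual-antibody lists can be rebuilt almost wholly from these single-antibody lists. Anti-ETO reached 373 genes in control only and 1616 in knockdown only, whereas anti-Flag reached 2068 and 483. Both single-antibody lists were longer in knockdown, with 14264 control and 22592 knockdown peaks for anti-ETO and 23162 and 25961 for anti-Flag. How the sets of genes reached came to differ in opposite directions was not tested. The share of control-only genes with anti-ETO alone was 36.8% among the wider 50% of peaks, 50.5% with the knockdown lists shortened and 73.9% with all 4 lists at 1 length. The share of knockdown-only genes with anti-Flag alone was 7.94%, 53.7% and 26.7% in the same settings. Among the wider 50% the single-antibody lists stayed whole. A gene whose narrower dual-antibody peak was left out there has calls of both antibodies, so these shares fall by construction.

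At the promoters of a few 1-sided genes of known function, the peak that set the class is seen next to the gene start. The 250 bases before the start are given below, 5′ to 3′ on the gene's strand (RefSeq, GRCh38.p14), for 6 listed genes. Among listed genes with a RefSeq promoter window available, these had the most peaks where the peak overlapped that window. The window runs from 250 bases before to 50 after the start. CEBPB, HK2 and RNASE3 had 2 peaks. The others had 1, and their ties with further listed genes, not shown, were broken by alphabetical order. CEBPD, control only with 2 peaks, had no promoter window available and so was not ranked. Capitals mark the bases under the dual-antibody peak.
CEBPB: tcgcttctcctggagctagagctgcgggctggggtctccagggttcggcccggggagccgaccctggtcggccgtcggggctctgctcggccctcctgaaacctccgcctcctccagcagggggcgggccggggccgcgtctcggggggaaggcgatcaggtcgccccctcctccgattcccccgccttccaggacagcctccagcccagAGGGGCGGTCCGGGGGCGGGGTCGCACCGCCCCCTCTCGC
HK2: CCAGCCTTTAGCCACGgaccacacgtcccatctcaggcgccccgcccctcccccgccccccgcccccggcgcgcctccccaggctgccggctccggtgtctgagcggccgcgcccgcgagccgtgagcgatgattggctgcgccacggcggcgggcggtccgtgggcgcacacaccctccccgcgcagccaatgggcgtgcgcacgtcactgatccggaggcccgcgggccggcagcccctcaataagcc
BCL2L1: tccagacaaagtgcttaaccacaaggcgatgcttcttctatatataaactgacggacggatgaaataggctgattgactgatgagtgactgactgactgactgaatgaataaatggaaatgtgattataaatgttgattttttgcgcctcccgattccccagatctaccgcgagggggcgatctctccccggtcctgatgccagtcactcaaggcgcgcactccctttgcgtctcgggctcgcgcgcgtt
CTSG: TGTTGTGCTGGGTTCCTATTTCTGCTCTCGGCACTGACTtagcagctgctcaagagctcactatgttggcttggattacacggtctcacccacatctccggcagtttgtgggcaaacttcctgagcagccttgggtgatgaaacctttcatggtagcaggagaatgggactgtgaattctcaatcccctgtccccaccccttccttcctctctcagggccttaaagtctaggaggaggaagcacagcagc
RNASE3: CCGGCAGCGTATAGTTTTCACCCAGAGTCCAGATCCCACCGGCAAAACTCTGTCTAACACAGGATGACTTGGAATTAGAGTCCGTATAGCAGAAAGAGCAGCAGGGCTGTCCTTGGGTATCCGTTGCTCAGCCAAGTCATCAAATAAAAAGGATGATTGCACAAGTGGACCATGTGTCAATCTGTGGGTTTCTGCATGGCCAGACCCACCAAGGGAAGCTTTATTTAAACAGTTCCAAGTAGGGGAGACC
GAA: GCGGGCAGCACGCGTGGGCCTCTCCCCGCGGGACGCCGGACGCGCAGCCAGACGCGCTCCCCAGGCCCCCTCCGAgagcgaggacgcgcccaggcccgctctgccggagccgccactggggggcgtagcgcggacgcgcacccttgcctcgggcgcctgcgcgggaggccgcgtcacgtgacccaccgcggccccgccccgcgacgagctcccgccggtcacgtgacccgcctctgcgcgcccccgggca

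CEBPB encodes a C/EBP transcription factor of myeloid cells and was control only. The window shown is at chr20:50190333-50190582, and its last 40 bases lay under a peak at chr20:50190543-50191052. HK2, the gene of the glycolytic enzyme hexokinase 2, was control only and is shown at chr2:74833877-74834126. The first 16 bases lay under 1 of its 2 peaks, and the other peak began just after the start, at chr2:74834131-74834336. BCL2L1, which encodes the survival protein BCL-XL, was control only, and its peak at chr20:31723731-31723937 lay past the start, so none of the 250 bases at chr20:31723964-31724213 is in capitals. CTSG, which encodes the granule protease cathepsin G, was control only, with 39 of the bases at chr14:24576251-24576500 under the peak and no call of either antibody in knockdown. RNASE3, the gene of eosinophil cationic protein, was knockdown only, and its peak at chr14:20890873-20891820 covered all 250 bases at chr14:20891135-20891384. GAA, the gene of lysosomal acid alpha-glucosidase, was knockdown only, with 75 bases at chr17:80101331-80101580 under the peak and no control call of either antibody. The RUNX core, searched as TGTGGT or TGCGGT on both strands, occurred 1 time in the HK2 sequence and 1 time in the BCL2L1 sequence, each starting at base 18 as its reverse complement, and 0 times in the other 4. At HK2 the bases under the peak end at base 16, before the match.

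Deciding peaks of control-only genes sat closer to gene starts than those of knockdown-only genes. Of the gene-peak pairs of control-only genes in the RefSeq start table, 869 of 1413 (61.5%, 58.9 to 64) had the peak within 1 kb of a start, 16% elsewhere in the body and 22.5% in the flanks. For knockdown-only genes these shares were 42.6% (272 of 638, 38.9 to 46.5), 18.5% and 38.9%. Genes occupied in both conditions had 44.6% of their control peaks and 38.7% of their knockdown peaks at a start. The median distance from the peak centre to the nearest start of the gene was 0.42 kb for control-only and 3.05 kb for knockdown-only genes. Peaks were narrow in both classes, with median widths of 471 bp and 462 bp, against 743 bp and 753 bp for the control and knockdown peaks of genes occupied in both.

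**Figure D4:**
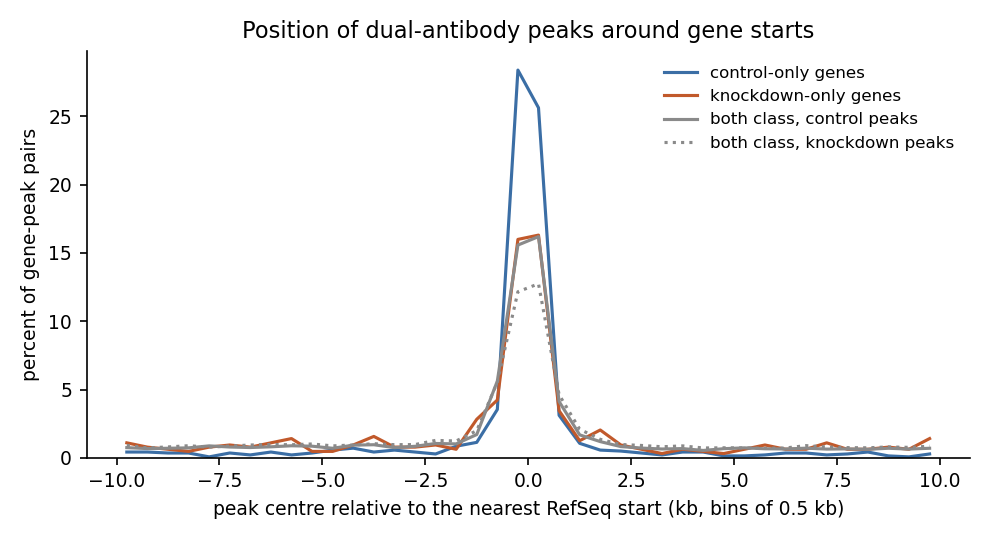
Percentage of gene-peak pairs (vertical) by the position of the peak centre relative to the gene's nearest RefSeq start (horizontal, bins of 0.5 kb, negative values upstream). Control-only genes reach 28.4% and 25.6% in the bins on either side of the start, knockdown-only genes 16% and 16.3%.

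Counted at promoters alone, the classes had the same order. Of 15813 genes with a RefSeq promoter window, 3714 (23.5%) had a dual-antibody peak over it in both conditions, 1025 (6.48%, 6.11 to 6.88) in control only, 483 (3.05%, 2.8 to 3.33) in knockdown only and 10591 (67%) in neither. Of the 1025, 658 belonged to the control-only genes of the 10 kb window and 367 to genes with another peak in knockdown. Of the 483, 174 belonged to knockdown-only genes and 309 to genes with another peak in control.

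Short motifs were then counted in the same windows of 300 bases, on both strands, with overlaps between different motifs allowed. The RUNX core occurred in 19% of all 22140 windows. Its share was 23.6% of the windows under a peak in both conditions and 22.1% (19.9 to 24.5) of those under a control peak only. It was 15.2% (12.7 to 18.1) of those under a knockdown peak only and 17.5% of those with no peak. The ETS motif CCGGAAG occurred in 12.8% of all windows and in 18.6%, 21.2%, 18.1% and 10.2% of these groups in the same order. The E-box CAGCTG was found in 18% of all windows and in 15.8% of both 1-sided groups. The AP-1 motif, TGAGTCA or TGACTCA, was found in 4.01% of all windows and in 1.99% and 2.19% of the control-only and knockdown-only groups. The GATA motif AGATAA was found in 7.88% of all windows and in 3.34% and 5.69%. Median GC content was 66.7% under control-only peaks, 65.7% under knockdown-only peaks and 59.3% where no peak lay, so the groups also differed in base composition. Grouped by the 10 kb class of the gene instead, the RUNX core share was 19.8% (18 to 21.7) of control-only and 16.6% (14 to 19.5) of knockdown-only windows, and these intervals overlapped. A match is not a binding site.

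The classes differed in the gene density of their surroundings. The median number of other protein-coding genes within 500 kb was 10 for control-only genes, 20 for knockdown-only genes, 18 for genes occupied in both, 9 for unoccupied genes and 12 for all genes. Genes were split by this number into 4 groups of equal size. In the sparsest group there were 443 control-only and 46 knockdown-only genes, a ratio of 9.63. In the following groups there were 476 and 95, then 349 and 228, and in the densest group 262 and 283, a ratio of 0.926. The ratio of knockdown to control gene-peak pairs went from 0.792 in the sparsest to 1.33 in the densest group. Control-only genes were also longer, with a median of 40.7 kb against 17.5 kb for knockdown-only genes and 24.2 kb for all genes. In the group of longest genes, split the same way, there were 531 control-only and 85 knockdown-only genes.

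**Figure D5:**
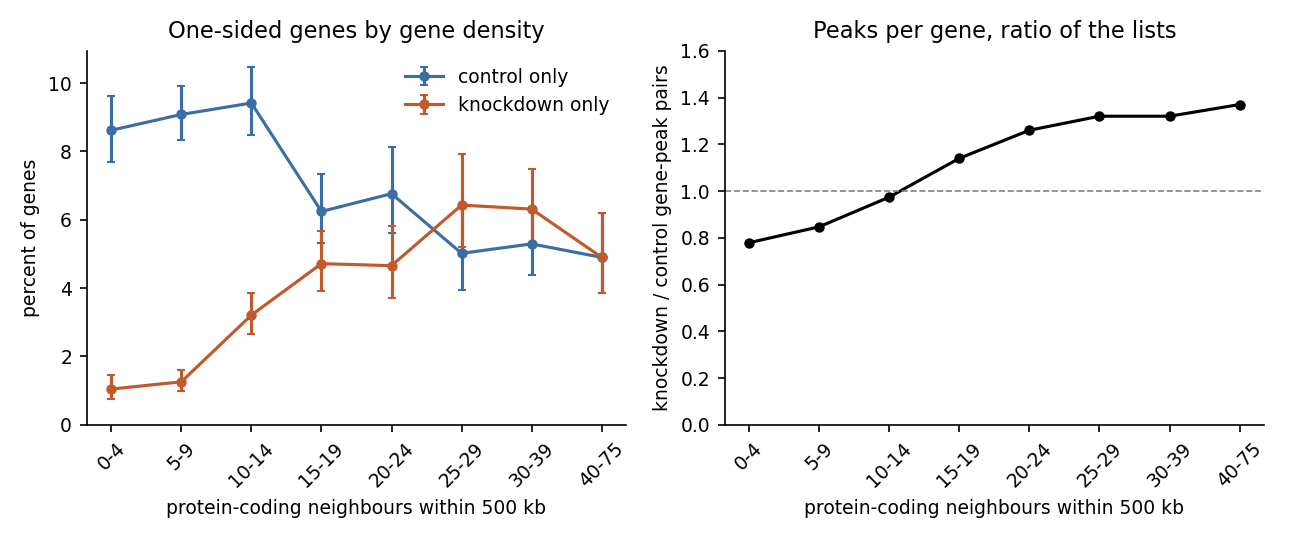
Left, percentage of genes that were control only or knockdown only, by the number of protein-coding neighbours within 500 kb (bars are 95% Wilson intervals, counting only). Right, ratio of knockdown to control gene-peak pairs in the same groups, with a dashed line at equal numbers: control-only genes go from 8.62% to 4.9% while knockdown-only genes go from 1.05% to 4.9%, and the ratio of pairs goes from 0.779 to 1.37.

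By chromosome, control-only genes outnumbered knockdown-only genes on 21 of the 23 chromosomes. Chromosome 19, with a median of 30 neighbours, was the exception with 48 control-only and 98 knockdown-only genes, and chromosome 16 had 34 of each. Chromosome 2 lay at the other end with 143 control-only and 22 knockdown-only genes. Chromosome 17 had 89 and 81. With chromosomes 16, 17, 19 and 22 left out, 1328 control-only and 413 knockdown-only genes were counted, or 76.3% control only.

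Many 1-sided genes shared their peak with a neighbour. The 1530 control-only genes rested on 1344 distinct peaks and formed 1167 loci when genes with a common peak were joined, and the 652 knockdown-only genes rested on 651 peaks and formed 502 loci. A peak that reached no other protein-coding gene was found at 779 control-only genes (50.9%) and 264 knockdown-only genes (40.5%). A peak shared with a gene occupied in both was found at 243 (15.9%) and 209 (32.1%). The longest run of adjacent control-only genes was the 22 genes of the protocadherin gamma cluster on chromosome 5 (141330514 to 141512975), all of which reach the same control peak. These are 1 site and not 22. A run of 10 on chromosome 17 (7481446 to 7590094) held POLR2A, which encodes the largest subunit of RNA polymerase II, the TNF family genes TNFSF12 and TNFSF13, the translation factor gene EIF4A1, the macrophage marker gene CD68, MPDU1 and SOX15. The longest runs of knockdown-only genes had 6 members, 1 of them in the complement region of chromosome 6 (31946095 to 32002681) with CFB and C4A. A run of 5 on chromosome 11 (1012823 to 1262172) held the mucin genes MUC6, MUC2, MUC5AC and MUC5B.

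Some classes hinged on the 10 kb limit. At 75 control-only genes the control peak lay between 8 and 10 kb away, and at 73 a knockdown peak lay between 10 and 12 kb. For knockdown-only genes these numbers were 49 and 68. A peak of the other list within 50 kb was found for 34.6% of control-only and 67.3% of knockdown-only genes.

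A set of 30 lists of genes of known function, chosen with earlier results of these data known, was read against the shares over all genes. Those shares were 36.2% occupied in both, 7.66% control only, 3.26% knockdown only and 52.9% neither. The lists held 422 genes, of which 217 (51.4%) were occupied in both conditions, 23 (5.45%) in control only, 21 (4.98%) in knockdown only and 161 (38.2%) in neither. Of the 23 control-only genes, 19 had anti-ETO alone in knockdown, against 79% of all control-only genes. Of the 21 knockdown-only genes, 10 had anti-Flag alone in control and 8 had neither antibody, against 51.1% and 23% of all knockdown-only genes. Among those 10 were HOXA3, HOXA5 and HOXA6, which share 1 peak, and among those 8 were HOXB5, HOXB6, HOXB7 and HOXB8, which share another. Counts of listed genes with more or fewer peaks are read against the 35% and 17.7% over all genes occupied in both, a direction that turned with shorter single-antibody lists as given above.

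Among AML1-ETO and its partners, 6 of the 7 genes of the RUNX and ETO families were occupied in both conditions and none was 1-sided. Over all genes, 36.2% were occupied in both, 7.66% in control only and 3.26% in knockdown only, so few 1-sided genes would be looked for among 7. RUNX1 itself had 11 control and 9 knockdown peaks, CBFA2T3 had 9 and 10, RUNX2 and RUNX3 each 4 and 3, and CBFB 3 and 4. RUNX1T1 had no peak in any list. Of 13 genes of the partner complex, 6 were occupied in both, including LYL1 with 5 peaks in each condition, LMO2 with 2 and LDB1 with 3. TCF12, the E protein HEB, and FLI1 were control only with 1 peak each, and both had an anti-ETO call without anti-Flag in knockdown. The FLI1 peak lay inside the gene at chromosome 11, 128695859 to 128696314. ERG was knockdown only with 1 peak inside the gene (chromosome 21, 38476633 to 38476923) and no control call of either antibody anywhere in its window. Its knockdown anti-ETO list held 4 peaks and its anti-Flag list 1. TCF3, another E protein gene, had 4 and 8.

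Of the corepressor genes, 6 of 10 were occupied in both, against 36.2% of all genes. None was 1-sided, where 7.66% of all genes were control only and 3.26% knockdown only. HDAC1 had 3 control peaks and 1 knockdown peak, HDAC3 had 4 and 3, SIN3A 3 and 4 and GPS2 1 and 3. TBL1XR1, a corepressor subunit named in the title of the series, had no dual-antibody peak in either condition and 1 knockdown anti-ETO peak. Of the chromatin methylases and demethylases, 17 of 20 were occupied in both. Of these 17, 11 had more peaks in knockdown and 2 had fewer, where 35% and 17.7% of all genes occupied in both did. Examples were KMT2D with 4 and 8, KDM2B with 3 and 6 and NSD2 with 5 and 8, against KMT2B with 6 and 4.

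Transcription factors of myeloid differentiation included several 1-sided cases. CEBPB and CEBPD each had 2 control peaks and none in knockdown, and at both the knockdown anti-ETO list held peaks, 2 and 3, where the anti-Flag list held 0. CEBPA and CEBPG had 1 peak in each condition and CEBPE had none. Of 13 ETS factor genes, 7 (53.8%) were occupied in both, against 36.2% of all genes. SPI1, which encodes the myeloid and B cell factor PU.1, had 3 control and 4 knockdown peaks, ETV6 had 4 and 2, and SPIB, a PU.1 relative, was knockdown only with 2 peaks. The interferon factor gene IRF8, needed for monocyte and dendritic cell development, had 5 and 2. Of the JUN and FOS genes, 8 of 13 were occupied in both with 30 gene-peak pairs in each condition.

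Of 16 granule protein genes of neutrophils and eosinophils, 8 (50%) were occupied in both conditions, 2 (12.5%) in control only and 2 (12.5%) in knockdown only. Over all genes these shares were 36.2%, 7.66% and 3.26%. The 16 genes had 19 control and 33 knockdown gene-peak pairs. The azurophil granule cluster on chromosome 19 held the largest differences of the list. ELANE, the neutrophil elastase gene, had 4 control and 10 knockdown peaks, its neighbour PRTN3, the proteinase 3 gene, had 1 and 9, and AZU1, the azurocidin gene, had 0 and 2. These genes lie between 827837 and 856243, so they share peaks: both AZU1 peaks also count for PRTN3. The higher knockdown number of the list comes from this cluster, where a shared peak counts for more than 1 gene. MPO, the myeloperoxidase gene, had 3 and 2. EPX, the eosinophil peroxidase gene near MPO, was control only with 1 peak, as was CTSG. RNASE3 was knockdown only, whereas its relative RNASE2 had 3 and 2.

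Receptor and surface protein genes also included 1-sided cases. CSF3R, the receptor gene of granulocyte colony-stimulating factor, and IL1RAP, a coreceptor gene for interleukin-1, were control only with 1 peak each and an anti-ETO call in knockdown. The IL1RAP peak lay at the start (chromosome 3, 190513695 to 190514238), whereas the CSF3R peak lay 25 kb downstream of the start. KIT had 2 control and 3 knockdown peaks, IL6R had 2 and 5, and CSF1R had 2 and 1. The stem cell marker gene CD34 was control only, whereas 6 of the 14 genes of its list were occupied in both, against 36.2% of all genes. Of the platelet glycoprotein genes, GP1BA was control only and ITGA2B was knockdown only with both single antibodies called in control. The integrin gene ITGAX and the complement receptor gene C5AR1 were knockdown only, each with anti-Flag alone in control.

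Among signalling genes, 13 of 18 were occupied in both, against 36.2% of all genes. INPP5D, which encodes the inositol phosphatase SHIP1, and the adaptor gene DOK2 were control only. VAV1, a guanine nucleotide exchange factor gene, had 7 control and 15 knockdown peaks, UBASH3B had 6 and 4, and PLCG2 had 8 and 6. Of the 23 listed control-only genes, DOK2 was the 1 with anti-Flag alone in knockdown. Of 12 Notch pathway genes, 10 were occupied in both, and 8 of these had more peaks in knockdown. The 1 gene with fewer, HEY1, lies outside that class. Over all genes occupied in both, 35% had more and 17.7% had fewer. Examples with more were the ligand gene JAG2 with 1 and 5 and NOTCH3 with 1 and 3. The target gene HEY1 was control only, and the target gene HES1 had 4 and 5. ID2, an inhibitor of E proteins, was knockdown only with 1 peak, and ID1 had 3 and 1.

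Among cell cycle, survival and repair genes, 1 of 18, 2 of 12 and 2 of 15 were 1-sided, where 7.66% of all genes were control only and 3.26% knockdown only. Of the 18 cell cycle genes, 12 were occupied in both, against 36.2% of all genes. CCNE1, the cyclin E1 gene, was knockdown only, with a peak at its start (chromosome 19, 29811255 to 29811619). MYC had 3 control peaks and 1 knockdown peak. The survival genes BCL2L1 and MCL1 were control only with 1 peak each, BCL2 had 2 in each condition, and the proapoptotic genes BAD and BBC3 had 3 and 7 and 3 and 6. UNG and LIG3 of base excision repair were control only, each with the peak at a start, while OGG1 had 3 and 6. Of 15 replication licensing genes, 10 were occupied in both, against 36.2% of all genes. Of these 10, 4 had more peaks in knockdown and 0 had fewer, where 35% and 17.7% of all genes occupied in both did. Of 16 splicing factor genes, 10 were occupied in both, against the same 36.2%, with SRSF1 at 2 and 9 peaks and SRSF2 at 4 and 10.

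In glycolysis, HK2 was control only while HK1, the gene of the other widespread hexokinase, was knockdown only. LDHA and LDHB, which encode the lactate dehydrogenase subunits, were control only, and LDHA had no call of either antibody in knockdown. GAPDH had 2 control peaks and 1 knockdown peak and PKM had 4 and 4. In the lysosome list, GAA and CTSA were knockdown only. The CTSA peak lay upstream among 4 other genes, and with a window of 50 kb CTSA had 2 more peaks in control than in knockdown. In the homeobox list, HOXA9, HOXA10 and HOXA11 had 1 peak in each condition and HOXA13 was control only. HOXA3, HOXA5 and HOXA6 were knockdown only through 1 shared peak (chromosome 7, 27142787 to 27143390), and HOXB5, HOXB6, HOXB7 and HOXB8 through another (chromosome 17, 48602528 to 48602701), so these 7 genes stand for 2 sites.

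Among markers of other cell types, the unoccupied share was 75% for T cell, 70% for B cell, 81.8% for red cell, 83.3% for liver and 66.7% for neuron genes, on 10 to 12 genes a list, and 52.9% over all genes. Of 12 T cell marker genes, 3 were occupied in both conditions and none was 1-sided. Of 10 B cell marker genes, 2 were occupied in both and BLK was control only. Of 11 red cell, 12 liver and 12 neuron marker genes, 2, 2 and 3 were occupied in both, and of all these RBFOX3, a neuronal splicing factor gene, was 1-sided, as knockdown only. The unoccupied markers included CD3D and CD8A, PAX5 and MS4A1, ALAS2, ALB and SYT1.

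In gene families, occupancy ranged widely. Over all genes, 36.2% were occupied in both conditions, 7.66% in control only and 3.26% in knockdown only. Of 390 olfactory receptor genes, 2 were occupied in both, 5 in control only and 0 in knockdown only, and of 149 keratin and keratin-associated genes 3, 0 and 0. Of 73 histone cluster genes, which lie close together, 56 were occupied in both, 6 in control only and 0 in knockdown only. Of 84 cytosolic ribosomal protein genes, 47 were occupied in both and 5 were 1-sided in each direction. Of 77 mitochondrial ribosomal protein genes these numbers were 35, 7 and 4, and of 48 proteasome genes 25, 5 and 1. Of 240 zinc finger genes of chromosome 19, 75 were occupied in both, 14 in control only and 16 in knockdown only.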

How the data were processed

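CUT&RUN libraries of anti-ETO, anti-Flag and mouse IgG were made in control and miR-130a knockdown Kasumi-1 cells, 6 groups of 3, as the sample titles give them. The authors deposited 9 interval lists with no unit beyond positions, and 8 were used. Per the submitters' processing notes, fastp 0.19.5, Bowtie2 2.3.5, MACS2 2.2.5, HOMER 4.8 and the builds hg38 and sacCer3 were involved. Which step used each, the threshold, the use of IgG and the handling of replicates are not given in the sources used here. Looser calling or more reads would lengthen a list, which can move each count here.

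Deposited dual-antibody lists were used as they stand. Rebuilding them from the single-antibody lists with an overlap of at least 100 bp gave 12234 of 12247 control and 13699 of 13712 knockdown intervals. Genes came from RefSeq (GRCh38.p14), and 15813 of 19974 matched the promoter table. The 4161 others, among them all genes of chromosome 8, are left out of the start, promoter and motif counts. Those counts cover 1256 of 1530 control-only and 504 of 652 knockdown-only genes. Starts count from 1. Counts used Python 3.11.15, numpy 2.4.6 and pandas 2.3.3, with intervals from statsmodels 0.14.6. The functions were tested on simulated data with 2000 genes, and 2000 classes were recovered. Members and lists were chosen with earlier results of these data known.

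Named genes are the 12 of each 1-sided class with the most peaks, the 12 with the largest difference each way among genes in both lists, the 8 with the most peaks, the 1-sided members of the 30 lists and up to 4 others a list; a few further list members were named after their values were seen. Some genes that the rule names are not reported here. Promoters are shown for at most 6 listed genes. Alternatives were other windows, the peak centre, nearest genes, shortened or wider lists, at least 2 peaks, unique lists and calls of neither antibody; leaving out chromosomes and joining loci were added after the data were seen.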

Additional observations from a re-analysis of the deposited data

How the results depend on the processing

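No paired analysis was possible because the lists name no library, and for the same reason no replicate was left out. The lists carry no depth or score, so lists were shortened by peak width.

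The percentage of 1-sided genes that were control only, 70.1% as reported, was 63% with the gene body alone (1303 control only, 765 knockdown only), 67.6% at 1 kb, 78.8% at 50 kb (knockdown only 430) and 63.3% by the nearest gene. It was 52.2% among the wider 50% of peaks (824 control only), 76.4% with the knockdown dual list shortened, 84.2% with both knockdown lists shortened (knockdown only 397) and 80% with all 4 lists at 1 length. It was 76.3% without chromosomes 16, 17, 19 and 22 (knockdown only 413) and 50.7% for genes with no call of either antibody (154 and 150). At 2 or more peaks it was 49.1% (46.8 to 51.4, 907 control only), an equal split within counting error. With the deposited unique lists it turned, to 47.2% (45.8 to 48.5, 2493 and 2793). The peak centre and loci joined by a shared peak (69.9%) left it within counting error. The cause of these differences was not tested.

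The percentage of genes with more knockdown peaks, 66.4% as reported, was 69.3% for the body, 68.5% for nearest genes, 69.9% for wider peaks, 55.9% with the knockdown dual list shortened, 75.4% at 2 or more peaks and 61% without the 4 chromosomes. It turned to 41.4% and 45.9% with the knockdown lists shortened and with all 4 at 1 length.

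Anti-ETO alone in knockdown at control-only genes, 79% as reported, was 76% by the nearest gene, 36.8% among wider peaks, 69.5%, 50.5% and 73.9% in the 3 shortened settings in the order above and 16.8% at 2 or more peaks. Anti-Flag alone in control at knockdown-only genes, 51.1% as reported, was 37.7% at 50 kb, 7.94% among wider peaks, 26.7% at 1 length, 8.72% at 2 or more peaks and 42.9% without the 4 chromosomes. The settings of wider peaks, 2 or more peaks and the shortened knockdown dual list left the single-antibody lists whole. A gene with an uncounted dual-antibody peak in the other condition has calls of both antibodies there. The lower shares in these settings therefore follow by construction and do not test the contrast. Within 2.5 kb of a start lay 65.7% of control-only and 49.2% of knockdown-only pairs. The RUNX core share of control-only promoters was 19.8% (18 to 21.7) by the 10 kb class and 22.1% (19.9 to 24.5) by a peak over the promoter. That of knockdown-only promoters was 16.6% (14 to 19.5) and 15.2% (12.7 to 18.1). The 95% Wilson intervals of both groups, which cover counting only, overlapped by the 10 kb class and lay apart by a peak over the promoter. Of 96 named genes followed, 43 kept their direction among the wider 50% of peaks and 50 had equal numbers there. Equal numbers were found at 25 with the gene body alone and at 25 with all 4 lists at 1 length. The direction turned at 4: CDC14A and STAP2 to 1 and BCOR to 4 more knockdown peaks among wider peaks (STAP2 to 1 also at 1 length), and CTSA to -2 at 50 kb.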
